A study of Marchantia polymorpha with 18 samples.

Results

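The 9 genes described here encode enzymes at the entry of phenolic metabolism in the liverwort Marchantia polymorpha. Of these, 8 neighbour each other on chromosome 4: the phenylalanine ammonia-lyase (PAL) family genes MpPAL7 (Mp4g14110), MpPAL6 (Mp4g14140), MpPAL-like2 (Mp4g14160) and MpPAL4 (Mp4g14210), and the chalcone synthase (CHS) family genes MpPKS/CHS11 (Mp4g14120), MpPKS/CHS12 (Mp4g14150), MpPKS/CHS13 (Mp4g14180) and MpPKS/CHS15 (Mp4g14200). The remaining gene is Mp4CL2 (Mp1g05060) on chromosome 1, a member of the 4-coumarate:CoA ligase (4CL) family. They are 9 of the 19355 genes in the count table, and all 9 passed the filter on low counts that left 13450 tested genes. The genes were picked by name with the response to crushing already known, and the rule gives no numerical threshold. Their change from intact to crushed thallus is therefore given as a description without a test, in both genotypes. The comparisons between genotypes and of untouched lobes with intact plants were tested.

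PAL removes ammonia from phenylalanine to give cinnamic acid, and 4CL joins hydroxycinnamic acids to coenzyme A. Chalcone synthases and their relatives, the plant type III polyketide synthases (PKS), extend these CoA esters with malonyl-CoA to chalcones or related aromatic polyketides. In land plants the products are the precursors of flavonoids and of other phenolics, and liverworts also make bibenzyls and bisbibenzyls from them.

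RNA was sequenced from thallus, the flat plant body of the liverwort, of soil-grown plants aged 28 days. The plants were wild type (WT) or Mpglr-9, which carries a CRISPR deletion in the glutamate receptor-like gene MpGLR, and the study asked what MpGLR contributes to expression after wounding. In each genotype there were intact plants and wounded plants, on which 2 lobes had been crushed with serrated forceps. The crushed lobes and the adjacent untouched lobes were taken separately 4 h later, together with intact thallus. Each of the 6 groups had 3 biological replicates of 9 pooled plants, and the mutant is represented by 1 allele. Libraries held 17312755 to 30690205 counts. The expression of MpGLR was not analysed here, and the genotype labels were taken as given. The labelled tissue was checked with photosynthesis genes, of which MpRBCS (small subunit of Rubisco) was at 52.4 to 114 CPM (counts of a gene per 1000000 counts of its library's effective size) in the 18 libraries, and the reproductive genes MpPRM, MpLC7 and MpBHLH20 (also called MpBNB) had at most 2, 2 and 4 counts in any library. The 6 reproductive markers summed to 224 to 256 CPM per library, most of it MpRKD at 213 to 248 CPM. The remaining ones, MpGCAM1 and MpDUO1, were at 1.99 to 11.2 CPM and 0.312 to 2.25 CPM.

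Levels are given in CPM and are compared only within a gene, not between genes of different length. The 4 PAL family genes of the stretch were low in intact wild-type thallus and higher in every crushed library. MpPAL7 had 1.93, 1.39 and 1.98 CPM in intact replicates 1, 2 and 3, 8.77, 6.35 and 5.46 CPM in crushed lobes and 1.67, 2.03 and 2.14 CPM in untouched lobes. The 3 crushed libraries lay above the other 6, which overlapped. In wild type MpPAL7 was 3.85-fold higher in crushed lobes, a log2 fold change of 1.94 ± 0.31 (SE, n = 3 per group).

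MpPAL6 was at 1.44, 1.34 and 1.30 CPM in intact, 6.46, 4.91 and 5.42 CPM in crushed and 1.32, 1.60 and 1.34 CPM in untouched wild-type lobes, 4.10-fold higher after crushing (2.03 ± 0.27 on the log2 scale, SE). The values of intact and untouched thallus were interleaved. MpPAL7 and MpPAL6 rest on few reads, with 55, 32 and 61 and 41, 31 and 40 counts in the intact wild-type libraries, against 148, 154 and 123 and 109, 119 and 122 in the crushed ones.

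MpPAL-like2 had 5.46, 3.25 and 3.44 CPM in intact, 23.0, 15.8 and 16.0 CPM in crushed and 6.44, 4.44 and 3.62 CPM in untouched lobes of the wild type. Replicate 1 was the highest library in each of these 3 groups, and the crushed libraries again did not overlap the others. Its change after crushing was 4.48-fold (2.16 ± 0.23 on the log2 scale, SE).

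MpPAL4, at the other end of the 4, had 7.32, 5.63 and 7.24 CPM in intact, 57.1, 37.8 and 29.8 CPM in crushed and 9.27, 7.75 and 6.29 CPM in untouched wild-type lobes. It was the PAL family gene among the 9 with the largest change, 6.12-fold (2.61 ± 0.26 on the log2 scale, SE). Untouched replicates 1 and 2 exceeded all intact libraries, and untouched replicate 3 fell among them.

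**Figure D1:**
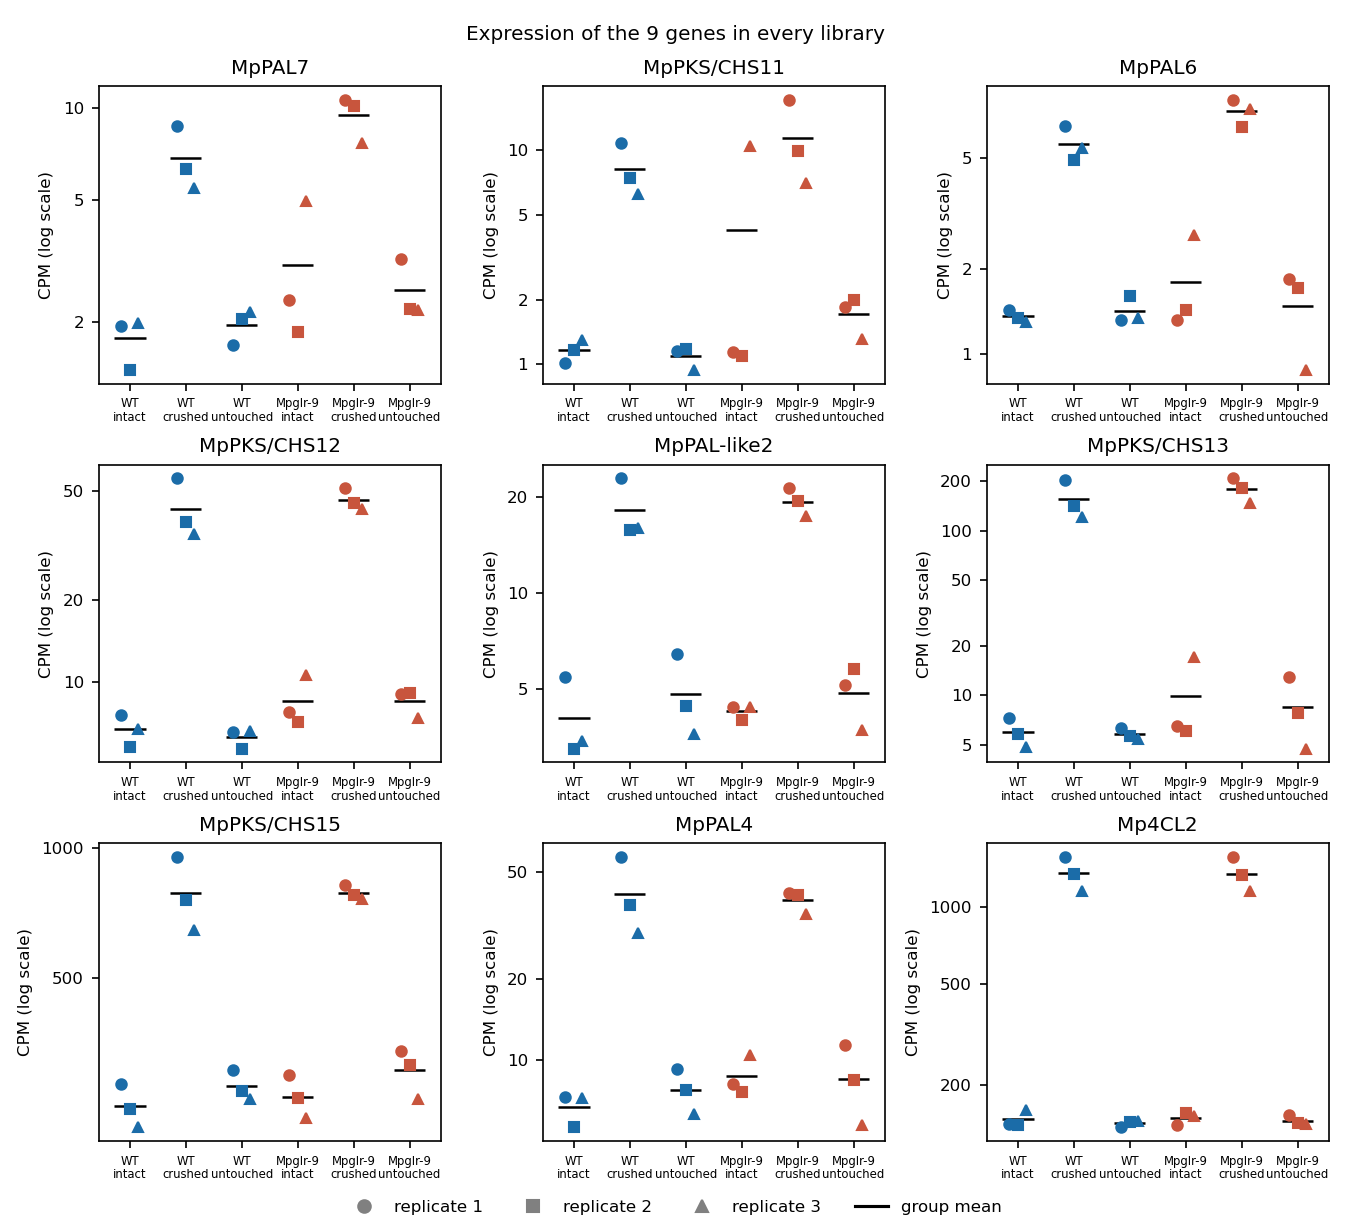
Expression of the 9 genes in CPM on a log axis in wild type (blue) and Mpglr-9 (red). Each point is a library, its shape gives the replicate number, and the bar is the mean of the group of 3. In 8 of the 9 genes the crushed libraries of both genotypes lie above all intact and untouched libraries, and in MpPKS/CHS11 the third intact library of Mpglr-9, at 10.5 CPM, reaches into the range of the crushed libraries.

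The 4 CHS family genes differed from each other much more than the PAL genes in the size of the change. MpPKS/CHS13 had 7.32, 5.80 and 4.87 CPM in intact, 204, 143 and 122 CPM in crushed and 6.31, 5.67 and 5.40 CPM in untouched wild-type lobes. This is a 26.0-fold difference between crushed and intact thallus (4.70 ± 0.41 on the log2 scale, SE), the largest of the 9 genes. The 6 uncrushed libraries all lay between 4.87 and 7.32 CPM.

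MpPKS/CHS15 showed the smallest change of the 9. It was already at 286, 249.7 and 226 CPM in intact plants and reached 953, 757 and 646 CPM in crushed lobes, with 308, 274 and 264 CPM in untouched lobes. The groups of crushed and intact libraries were still separate, at a 3.09-fold difference (1.63 ± 0.13 on the log2 scale, SE).

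MpPKS/CHS12 went from 7.57, 5.76 and 6.72 CPM in intact to 55.9, 38.7 and 34.7 CPM in crushed lobes, with 6.55, 5.67 and 6.61 CPM in untouched lobes of the wild type. The change was 6.41-fold (2.68 ± 0.18 on the log2 scale, SE). MpPKS/CHS11 was near the low end of what was measured, with 1.02, 1.17 and 1.30 CPM in intact, 10.8, 7.42 and 6.26 CPM in crushed and 1.15, 1.18 and 0.937 CPM in untouched lobes, a 6.97-fold change. Its standard error was the largest of the 9, at a log2 fold change of 2.80 ± 0.72.

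Mp4CL2, the gene away from the stretch, had 140.1, 139 and 158 CPM in intact, 1577, 1354 and 1158 CPM in crushed and 136, 143 and 144 CPM in untouched wild-type lobes. It was 9.34-fold higher after crushing (3.22 ± 0.12 on the log2 scale, SE), the second largest change of the 9 and the best determined. All 9 genes were thus higher in crushed than in intact wild-type thallus with no overlap of libraries, where 29.8% of all tested genes had every crushed library above every intact one and 27.7% were called higher at an adjusted p under 0.05. Nothing is read from this count, because the genes were picked for it. The median log2 fold change of the 9 was 2.61, against -0.026 for all tested genes. With upper-quartile scaling in place of TMM the median of all genes moved to -0.12 and that of the 9 to 2.52, and 37.8% rather than 50.0% of all called genes were called higher.

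In Mpglr-9 the 9 genes were also higher in crushed than in intact thallus on average, with a median log2 fold change of 2.17 against -0.020 over all genes. Of the 9, 8 had every crushed library above every intact one, as had 30.6% of all genes, and 27.6% of all genes were called higher. MpPKS/CHS13 went from 6.48, 6.11 and 17.2 CPM in intact mutant plants to 209, 182 and 148 CPM in crushed lobes, 18.1-fold (4.18 ± 0.39 on the log2 scale, SE). Mp4CL2 went from 139, 155 and 150.3 to 1572, 1336 and 1153 CPM, 9.15-fold (3.19 ± 0.12, SE). In both genes the crushed libraries were far above the intact ones.

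MpPKS/CHS15 went from 299, 264 and 238 to 819, 779 and 764 CPM in the mutant, 2.95-fold. MpPAL4 had 8.19, 7.65 and 10.4 CPM in intact and 41.9, 41.1 and 35.1 CPM in crushed mutant lobes, 4.49-fold. MpPAL-like2 had 4.38, 4.00 and 4.40 CPM in intact and 21.4, 19.5 and 17.4 CPM in crushed lobes, 4.56-fold. MpPKS/CHS12 had 7.76, 7.09 and 10.6 CPM in intact and 51.3, 45.4 and 43.1 CPM in crushed lobes, 5.49-fold (2.46 ± 0.17, SE). The intact and crushed groups of these 4 genes were separate, and the order of the genes by size of the change was close to that in wild type, with MpPKS/CHS13 and Mp4CL2 at the top in both genotypes.

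The exception was MpPKS/CHS11. In intact mutant plants it had 1.14, 1.09 and 10.5 CPM in replicates 1, 2 and 3, from 32, 29 and 286 counts, and in crushed lobes 17.3, 9.96 and 7.06 CPM. Intact replicate 3 thus exceeded crushed replicates 2 and 3, and the average change was 2.70-fold with a wide error (1.43 ± 0.65 on the log2 scale, SE). Without that library the change was 10.2-fold.

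The same intact mutant library was high in other genes of the stretch. MpPAL7 had 2.35, 1.85 and 4.99 CPM in intact and 10.7, 10.2 and 7.71 CPM in crushed mutant lobes, and MpPAL6 had 1.32, 1.43 and 2.64 and 8.05, 6.42 and 7.43 CPM. In both genes intact replicate 3 stood above the other 2 intact libraries and below the crushed ones. Relative to the mean of intact mutant replicates 1 and 2, replicate 3 had 9.39 times the level of MpPKS/CHS11, 2.73 times that of MpPKS/CHS13, 2.38 times that of MpPAL7 and 1.92 times that of MpPAL6. The ratio was 1.43 for MpPKS/CHS12, 1.32 for MpPAL4, 1.05 for MpPAL-like2, 1.02 for Mp4CL2 and 0.845 for MpPKS/CHS15. So 4 of the 9 genes exceeded a ratio of 1.5, as did 5.18% of all tested genes. Of the 986 genes called at least 2-fold higher in crushed wild-type lobes, 16.9% exceeded it in this library, and in the other 11 uncrushed libraries this share ran from 5.07% to 15.9%.

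Genes outside the 9 that were high in this library included MpPKS/CHS16, which follows MpPAL4 on chromosome 4, at 4.69 times the mean of the other 2 libraries, and MpPAL3 and MpPKS/CHS18 at 3.89 and 3.75 times. These were chosen after their values were seen. The other genes of the CHS family in and beside the stretch were not high there, with ratios of 1.03 for MpPKS/CHS10 and 0.788 for MpPKS/CHS14, and Mp4g14170 had 0.931. The summed level of the photosynthesis markers MpRBCS, MpCHLD and MpCHLI1/2-like in it was 720 CPM, the highest of the 3 intact mutant libraries (629 to 720 CPM), and its total of 27377145 counts was close to those of the other 2. Any part of these in the high values was not tested. Without the library, the change after crushing in the mutant was 28.6-fold for MpPKS/CHS13, 4.54-fold for MpPAL7 and 5.30-fold for MpPAL6, against 18.1-fold, 3.11-fold and 4.05-fold with it, and the median log2 fold change of the 9 genes was 2.41 rather than 2.17.

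**Figure D2:**
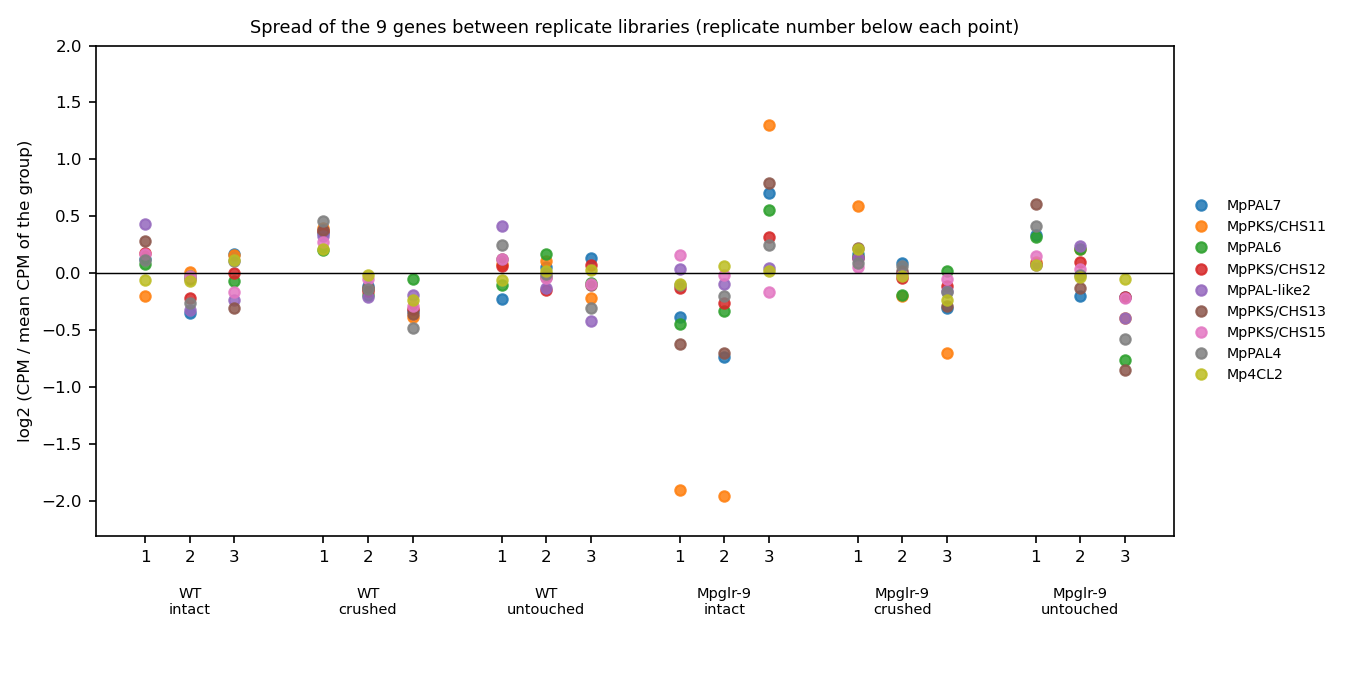
Level of each of the 9 genes in each library relative to the mean of its group, as log2 of the ratio of CPM values. Colours are genes and the numbers below are replicate numbers. In the intact mutant library numbered 3, 7 of the 9 genes are the highest of their group, with MpPKS/CHS11 the farthest above its group mean. The ratio of 9.39 given in the text for MpPKS/CHS11 is to the mean of the other 2 libraries and is not plotted here. In crushed lobes of both genotypes replicate 1 holds the highest value of every gene.

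The crushed libraries also differed from each other in a way the 9 genes shared. In crushed wild-type lobes replicate 1 had the highest CPM of the 3 for 9 of 9 genes, where 38.7% of all tested genes were highest there. In crushed mutant lobes it was again replicate 1 for 9 of 9, against 36.6% of all genes. The ratio of replicate 1 to the mean of the other 2 ran from 1.25 to 1.69 in wild type and from 1.06 to 2.03 in the mutant. The summed level of the 3 photosynthesis markers was lowest in the same libraries, at 289, 331 and 398 CPM in replicates 1, 2 and 3 of crushed wild-type lobes and 278, 357 and 422 CPM in the mutant, against 629 to 724 CPM in the 12 uncrushed libraries. The 15 markers of dividing cells, histones and cell-cycle genes, summed to 207, 251 and 327 CPM in wild type and 236, 305 and 323 CPM in the mutant. In the 12 uncrushed libraries they summed to 507 to 576 CPM. The part of these markers in the result was not tested, and in bulk samples fewer cells of a type and less RNA per cell cannot be told apart. Wild-type crushed replicate 1 was also the shallowest library, with 17312755 counts, whereas crushed replicate 1 of the mutant had 22523975, between the other 2. Without wild-type crushed replicate 1 the median log2 fold change of the 9 genes was 2.32. The order of the crushed replicates was not particular to the 9. Of other genes in or beside the stretch, MpPKS/CHS10, MpPKS/CHS16, Mp4g14170 and Mp4g14080 were also highest in crushed replicate 1 of both genotypes. MpPKS/CHS14 was highest there in wild type (221 CPM) but lowest there in the mutant (209 CPM).

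The PAL family genes of the stretch supplied a small part of the reads of their family. The 11 genes with a PAL symbol summed to 438 ± 46.9 CPM in intact and 931 ± 129 CPM in crushed wild-type lobes (SD, n = 3). The 4 genes of the stretch held 3.16 ± 0.26% of these reads in intact and 7.67 ± 1.10% in crushed lobes, and in the mutant 3.65 ± 0.98% and 8.93 ± 0.49%. Most PAL reads came from MpPAL8, at 358 ± 41.8 CPM in intact and 767 ± 103 CPM in crushed wild-type lobes. MpPAL8 lies elsewhere on chromosome 4.

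For the CHS family the part was larger. The 28 genes with a CHS family symbol summed to 974 ± 67.5 CPM in intact and 2467 ± 387 CPM in crushed wild-type lobes, and the 4 genes of the stretch held 27.4 ± 1.32% and 40.0 ± 2.65% of them. In the mutant the shares were 28.6 ± 0.62% and 39.4 ± 0.83%. Of the 2 genes with a 4CL symbol, Mp4CL2 held 83.7 ± 0.73% of the reads in intact and 89.2 ± 0.89% in crushed wild-type lobes. These are shares of reads, not corrected for gene length, and reads of near-identical family members may have been shared or lost in the counting.

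The stretch on chromosome 4 held other genes that rose with the 8. Within the locus numbers Mp4g14060 to Mp4g14260 the table had 21 genes, of which 13 are not among the 9 genes and 11 of these were tested. In crushed against intact wild-type thallus 5 of the 11 were called higher and 3 lower by edgeR's quasi-likelihood test, and in the mutant 5 were higher and 4 lower (all genes: 27.7% higher and 27.8% lower in wild type, 27.6% and 27.2% in the mutant). The lower call of Mp4g14240, at -0.13 in both genotypes, was lost in 5 of 13 alternatives in wild type (adjusted p up to 0.125, edgeR) and in 6 of 13 in the mutant (up to 0.209), among them leaving out intact replicate 1 or crushed replicate 2 or 3 in wild type, and any intact replicate or crushed replicate 1 or 2 in the mutant. Since the 8 were taken out of this stretch for their response, the count of the remainder is a description.

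Mp4g14170, between MpPAL-like2 and MpPKS/CHS13, has no counterpart of the same number in the table of gene names. It had 10.8, 9.18 and 7.24 CPM in intact, 50.7, 35.5 and 35.8 CPM in crushed and 11.4, 9.62 and 8.71 CPM in untouched wild-type lobes. The crushed libraries lay above all others, and the gene rose by 2.16 ± 0.22 on the log2 scale (SE, adjusted p = 6.72e-07, edgeR), close to its neighbour MpPAL-like2 (2.16).

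Mp4g14130, between MpPKS/CHS11 and MpPAL6, had 4 counts over all 18 libraries and was not tested. MpPKS/CHS14, between MpPKS/CHS13 and MpPKS/CHS15, had 147, 132 and 113 CPM in intact and 221, 196 and 200.4 CPM in crushed wild-type lobes, and rose by 0.66 ± 0.14 on the log2 scale (SE, adjusted p = 0.00111, edgeR). This is the smallest change of the tested genes between MpPAL7 and MpPAL4.

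The genes that flank the 8 on either side belong to the CHS family too. MpPKS/CHS10, just before MpPAL7, rose by 0.99 ± 0.10 on the log2 scale (SE, adjusted p = 6.16e-07, edgeR), from 62.7 ± 8.93 to 125 ± 18.1 CPM (SD, n = 3). MpPKS/CHS16, just after MpPAL4, rose by 3.20 ± 0.58 (SE, adjusted p = 0.000311, edgeR), from 2.50 ± 0.142 to 23.0 ± 10.1 CPM. In the mutant MpPKS/CHS16 rose 4.50-fold with the intact library described above and 10.0-fold without it. Farther out, Mp4g14080 rose by 0.70 ± 0.05 in wild type (SE, adjusted p = 8.57e-09, edgeR), against 0.66 for MpPKS/CHS14 inside the stretch, Mp4g14070 fell by 1.51, and the other 5 tested genes had log2 fold changes of -1.71 to 0.12.

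**Figure D3:**
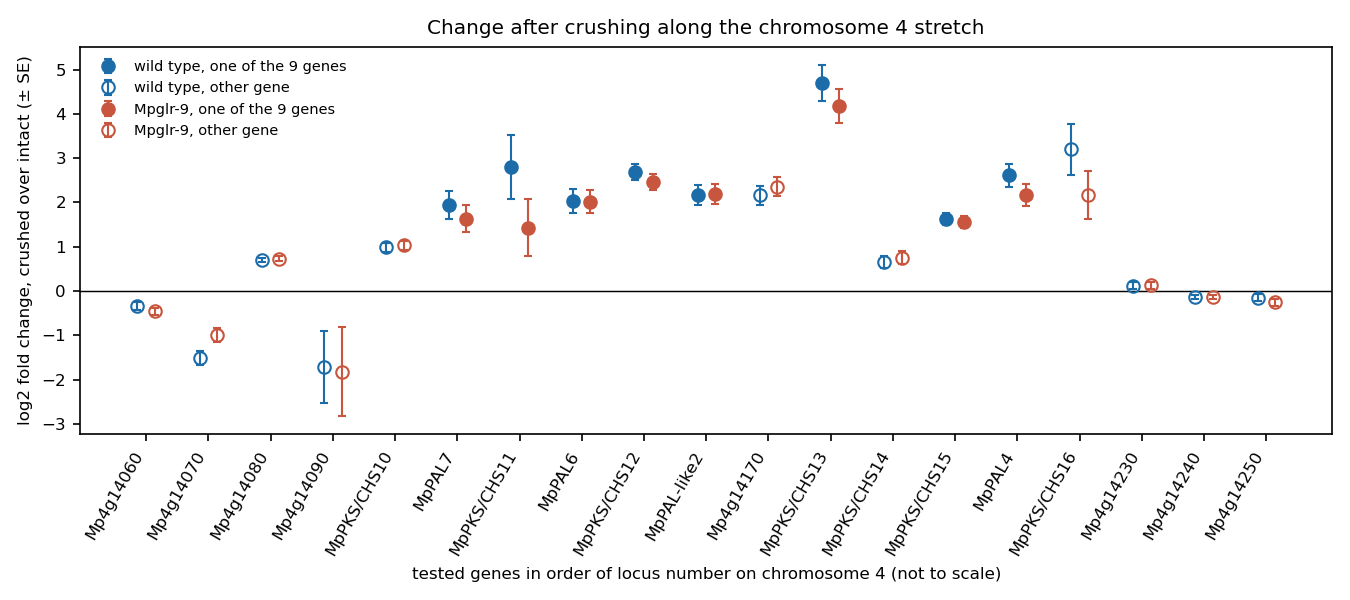
Log2 fold change from intact to crushed thallus, with its standard error, for the 19 tested genes with locus numbers Mp4g14060 to Mp4g14260, in order of their number. Filled points are among the 9 genes described here and open points are other genes. The highest value is 4.70 at MpPKS/CHS13 in wild type; of the 4 genes before MpPKS/CHS10 only Mp4g14080 lies above 0, at 0.70, and the 3 tested genes from Mp4g14230 on lie near 0.

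The lobes left untouched on wounded plants were set against intact plants to ask whether the genes respond at a distance. None of the 9 genes was called in either genotype by edgeR, and over all tested genes 0% were called in wild type and 0% in the mutant. In wild type 0 of the 9 genes and 353 of all genes had an unadjusted p under 0.05, and in the mutant 0 and 810. DESeq2 called 8 genes in wild type and 0 in the mutant, none of them among the 9. No gene of the 9 had its untouched libraries all above or all below the intact ones in either genotype, as had 4.34% and 5.05% of all genes in wild type and 6.86% and 6.4% in the mutant.

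The intervals say how large a distant change could have been. For Mp4CL2 the log2 fold change in untouched against intact wild-type lobes was -0.052 ± 0.11 (SE, 95% interval -0.28 to 0.18), and for MpPKS/CHS15 it was 0.15 ± 0.13 (-0.13 to 0.43). For 7 of the 9 genes the interval lay within 1 of 0 on the log2 scale. The exceptions were MpPKS/CHS13, at -0.041 (-1.08 to 0.99), and MpPKS/CHS11, at -0.096 (-1.76 to 1.57). In the mutant 7 of 9 intervals again lay within 1 of 0, and the exceptions were the same genes, with MpPKS/CHS11 at -1.30 (-2.79 to 0.20) and MpPKS/CHS13 at -0.23 (-1.16 to 0.70).

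Averaged over both genotypes, the differences ran from -0.70 for MpPKS/CHS11 (95% interval -1.81 to 0.42) to 0.23 for MpPAL-like2 (-0.12 to 0.58), and the smallest adjusted p was that of MpPKS/CHS15 (0.18 ± 0.093, SE, adjusted p = 0.903, edgeR). None of the 9 was called, and 0% of all genes were. Untouched mutant replicate 3 was the lowest of its group for 9 of 9 genes, where 35.7% of all tested genes had their lowest value there. For MpPKS/CHS13 the untouched mutant libraries had 13.0, 7.77 and 4.73 CPM, for MpPAL6 1.85, 1.72 and 0.875 CPM and for MpPAL4 11.4, 8.45 and 5.73 CPM. In these 3 genes untouched replicate 3 lay below all intact mutant libraries, and replicates 1 and 2 lay among or above them. Mp4CL2 was even, at 152, 141 and 139.8 CPM, and MpPKS/CHS15 had 341, 315 and 264 CPM.

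The mutant was compared with wild type in each tissue to ask what MpGLR contributes to the level of these genes. None of the 9 genes was called in intact, crushed or untouched thallus, where edgeR called 0.0223%, 0.0297% and 0.052% of all genes. At an unadjusted p under 0.05 there were 2 of the 9 in intact plants, 0 in crushed lobes and 1 in untouched lobes, and over all tested genes 402 (2.99%), 781 (5.81%) and 673. By DESeq2 0 of the 9 were called in any of these comparisons. With the replicate number as a block, the count over all genes in crushed lobes was 9 rather than 4, and 0 of the 9 were among them.

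In intact plants the largest differences were those of MpPKS/CHS11, 1.86 ± 0.71 on the log2 scale (mutant over wild type, SE, 95% interval 0.33 to 3.39, adjusted p = 1, edgeR), and of MpPAL7, 0.79 ± 0.31 (0.14 to 1.43, adjusted p = 1). Without intact mutant replicate 3 they were -0.056 and 0.24. MpPKS/CHS13 was at 0.73 with this library and 0.074 without it. Mp4CL2 and MpPKS/CHS15 had the narrowest intervals, at 0.021 ± 0.11 (-0.21 to 0.25) and 0.071 ± 0.13 (-0.21 to 0.35).

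In crushed lobes the differences between the genotypes ran from -0.073 for MpPAL4 to 0.49 for MpPKS/CHS11 on the log2 scale. Mp4CL2 was at 1577, 1354 and 1158 CPM in wild type and 1572, 1336 and 1153 CPM in the mutant, a difference of -0.0097 (-0.23 to 0.21). MpPKS/CHS15 differed by 0.0038 (-0.27 to 0.28) and MpPKS/CHS12 by 0.12 (-0.22 to 0.45). For these 3 genes a difference of more than 1.5-fold lay outside the 95% interval. The intervals of MpPAL7 (-0.12 to 1.08) and MpPKS/CHS11 (-0.87 to 1.86) still allowed differences of more than 2-fold.

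In untouched lobes MpPKS/CHS12 had 6.55, 5.67 and 6.61 CPM in wild type and 9.01, 9.09 and 7.35 CPM in the mutant, a difference of 0.43 ± 0.19 (SE, 95% interval 0.027 to 0.83, adjusted p = 0.946, edgeR). All 3 mutant libraries lay above the wild-type ones for this gene, for MpPAL7 and for MpPKS/CHS11, 3 of the 9 genes, as they did for 7.38% of all genes. In intact plants that held for MpPAL4 alone (all genes: 4.42%) and in crushed lobes for none of the 9 (4.66%). The reverse order, all mutant libraries below the wild-type ones, held for 0 of the 9 genes in intact, crushed and untouched thallus, where 5.06%, 3.48% and 7.33% of all genes had it.

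Averaged over the 3 tissues, 9 of the 9 genes had a positive difference between mutant and wild type, from 0.016 for Mp4CL2 to 1.01 for MpPKS/CHS11, with a median of 0.28 against -0.0002 for all genes. Over all tested genes 49.9% had a positive difference. None of the 9 was called, and 0.312% of all genes were. At an unadjusted p under 0.05 by edgeR there were 3 of the 9, and 1129 (8.39%) of all tested genes. The smallest adjusted p was that of MpPAL7, at 0.55 ± 0.17 (SE, 95% interval 0.18 to 0.92, adjusted p = 0.312, edgeR), followed by MpPKS/CHS12 at 0.30 ± 0.10 (adjusted p = 0.384). Without intact mutant replicate 3 these were 0.37 and 0.23, and MpPKS/CHS11 was 0.37 rather than 1.01. The 9 genes were measured in the same libraries, so that the common sign is not 9 separate observations.

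**Figure D4:**
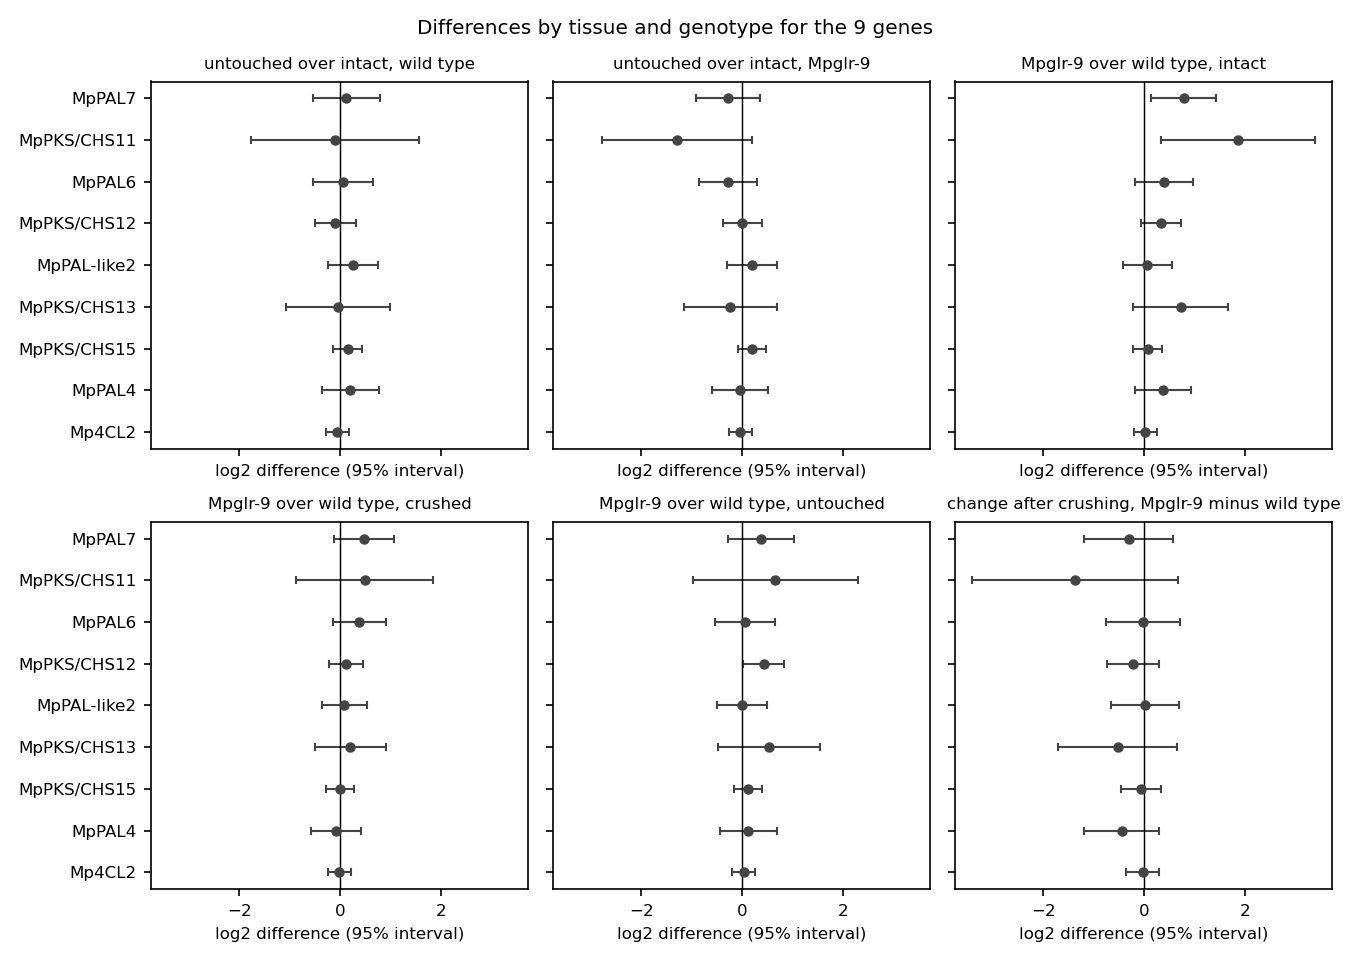
Log2 differences with 95% intervals for the 9 genes between untouched and intact thallus, between Mpglr-9 and wild type in each tissue, and between the genotypes in the change after crushing. The intervals of Mp4CL2 and MpPKS/CHS15 are the narrowest, MpPKS/CHS11 has the widest, and none of the differences passed the threshold on the adjusted p, 0.05.

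The interaction asked whether crushing moved a gene by a different amount in the 2 genotypes. It was called for 0 of the 9 genes and for 0% of all genes by edgeR (335 genes had an unadjusted p under 0.05, 0 of the 9 among them, and DESeq2 called 0). The 9 genes were picked with their change after crushing known, and that change enters the interaction, so its direction is only described. Of the 9 genes 1 had an interaction above 0 (median of the 9 -0.22), against 50.6% of all genes. Mp4CL2 rose by 3.19 in the mutant and 3.22 in wild type, a difference of -0.030 (95% interval -0.35 to 0.29, adjusted p = 1). MpPKS/CHS15 differed by -0.067 (-0.46 to 0.33). For 5 of the 9 genes the interval lay within 1 of 0.

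Of the other 4, MpPKS/CHS11 was at -1.37 (-3.41 to 0.67) and MpPKS/CHS13 at -0.52 (-1.70 to 0.66), and without intact mutant replicate 3 they were at 0.55 and 0.13, with the opposite sign. MpPAL4 was at -0.45 (-1.19 to 0.30) and -0.30 without that library, and MpPAL7 at -0.31 (-1.19 to 0.57) and, again with the opposite sign, 0.23. For the change from intact to untouched lobes the interaction called 0 of the 9 genes and 0% of all genes (356 at an unadjusted p under 0.05, 0 of the 9 among them, and DESeq2 called 0), with 0.016 for Mp4CL2 (-0.31 to 0.34) and -1.20 for MpPKS/CHS11 (-3.44 to 1.04).

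Among the other genes of the pathway, most of those that supply phenylalanine rose. Of 13 tested genes of the shikimate and phenylalanine list, 10 rose and 1 fell in crushed wild-type lobes (median log2 fold change 0.98) and 9 rose and 1 fell in the mutant (median 1.13). MpDAHP, whose enzyme starts the shikimate pathway, was at 591 ± 64.8 CPM (SD, n = 3) in intact and 3168 ± 372 CPM in crushed wild-type lobes. On the log2 scale it rose by 2.42 ± 0.10 (SE), with an adjusted p of 1.35e-11 by edgeR. MpADT4, of the arogenate dehydratase family that forms phenylalanine, rose 5.20-fold, and MpCS rose 5.63-fold. These changes stood beside those of the 9 genes, and the share of all genes called higher was 27.7% in wild type and 27.6% in the mutant.

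Of 6 tested PAL genes outside the stretch 4 rose and none fell in wild type, and 3 rose and none fell in the mutant. Over all tested genes 27.7% were called higher and 27.8% lower in wild type, and 27.6% and 27.2% in the mutant. MpPAL3 rose 5.49-fold from 1.21 ± 0.34 CPM, MpPAL8 rose 2.14-fold and MpPAL10 rose 1.70-fold. In the mutant MpPAL3 rose 3.24-fold, or 6.34-fold without intact replicate 3. Cinnamate 4-hydroxylase (C4H) stands between PAL and 4CL in the pathway, and of 3 C4H genes 2 rose and 1 fell in wild type, with MpC4H2 1.84-fold and MpC4H1 1.58-fold higher. MpC4H3 fell by 0.52 on the log2 scale in wild type. In the mutant the same 2 genes rose, by 0.88 and 0.68 on the log2 scale, and MpC4H3 fell by 0.31. It was not called when intact replicate 1 or 2 or crushed replicate 1 or 2 was left out (adjusted p up to 0.125, edgeR).

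Mp4CL1, the other 4CL gene, rose 5.85-fold in wild type and 5.95-fold in the mutant. Of 18 tested CHS family genes outside the 9, 8 rose (44.4%) and 5 fell (27.8%) in wild type, against 27.7% and 27.8% of all genes. In the mutant 9 rose (50%) and 4 fell (22.2%), against 27.6% and 27.2% of all genes. MpPKS/CHS21 rose 42.9-fold, MpPKS/CHS18 rose 28.5-fold and MpPKS/CHS16, of the stretch, rose 9.18-fold in wild type. In the mutant MpPKS/CHS18 rose 16.5-fold, or 31.7-fold without intact replicate 3. Without wild-type intact replicate 2, or without crushed replicate 1, 3 rather than 5 CHS family genes were called lower in wild type.

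The lists of later enzymes and their relatives moved both ways. Of 28 tested flavonoid and pigment genes 9 rose (32.1%) and 11 fell (39.3%) in wild type (median -0.14) and 8 rose and 9 fell in the mutant, with the auronidin enzyme gene MpAUS 23.5-fold and MpDFR-like15 2.85-fold higher in wild type, and MpLAR-like3 2.79-fold higher from 0.687 ± 0.224 CPM. Most genes of this flavonoid and pigment list have -like in their symbol, as have most of its higher and lower calls. Whether these relatives act in flavonoid synthesis was not examined. Of the genes without it, MpAUS rose, and MpF3H and MpCHIL2 rose by 0.43 and 0.62 on the log2 scale in wild type. MpCHIL1 fell by 0.59, and MpCHI and MpCHIL3 were not called. Of 13 genes of hydroxycinnamate and lignin-type enzymes 3 rose and 3 fell in wild type (23.1% each, against 27.7% higher and 27.8% lower of all genes), and 2 rose and 3 fell in the mutant. MpOMT8, of the O-methyltransferase family, rose 5.01-fold, MpOMT13 rose 2.41-fold and MpOMT1 fell by 0.45 on the log2 scale in wild type. With upper-quartile scaling 5 rather than 3 genes of this list fell in each genotype.

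Of 7 tested regulators of pigment genes 3 rose and 2 fell in each genotype. MpR2R3-MYB14, a MYB factor known to activate auronidin synthesis in this species, rose from 1.40 ± 0.20 to 10.2 ± 5.78 CPM in wild type, MpBHLH12 rose 1.72-fold, and MpCOP1, a repressor of light signalling, fell by 0.43 on the log2 scale. Over all 8 lists, which hold no gene of the 9, 40 of 89 tested genes rose (44.9%) and 23 fell (25.8%) in wild type, against 27.7% and 27.8% of all genes, and 37 rose and 20 fell in the mutant. Between mutant and wild type 0 of the 89 were called in intact, crushed or untouched thallus. Averaged over the 3 tissues, MpPKS/CHS-like3 was called, at 78.5 CPM in wild type and 88.1 CPM in the mutant (log2 difference 0.17 ± 0.03, SE, adjusted p = 0.0299, edgeR).

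The 9 genes were also compared with all other tested genes by the shape of their expression over the 18 libraries. The measure was the root mean square difference between profiles of log2 CPM, each centred on its own mean, so that 0 means the same profile. Since the profile of the 9 is set by the rise in crushed lobes, the likeness is a description. MpPKS/CHS12 was the gene closest to the mean profile of the 9, at 0.13, followed by MpPAL4 at 0.18, and MpPKS/CHS13 was the farthest, at 0.98. Of the genes outside the 9, 1626 were nearer to the mean profile than MpPKS/CHS13.

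The 8 genes outside the 9 with the smallest difference were MpMAPKKK10 (0.18), Mp1g06780 (0.22), MpJAZ (0.23), Mp6g06220 (0.23), Mp4CL1 (0.24), Mp3g07000 (0.25), Mp3g24240 (0.25) and Mp4g16370 (0.25). MpMAPKKK10 belongs by name to the MAP kinase kinase kinases and had mean levels of 19.3 CPM in intact, 121 CPM in crushed and 20.7 CPM in untouched wild-type lobes. MpJAZ, the repressor of oxylipin signalling, had 35.5, 182 and 35.6 CPM. For every gene of the 9 the nearest gene overall was outside the 9, such as Mp1g28940 for MpPAL7 (0.25), MpPLD1 for MpPAL6 (0.26), MpPKS/CHS23 for MpPAL-like2 (0.19) and Mp6g05980 for MpPAL4 (0.21). Between single genes, MpPAL7 was nearest to MpPAL6 among the 9 (0.31), MpPAL6 and MpPAL-like2 to MpPAL4 (0.30 and 0.25) and MpPAL4 to MpPKS/CHS12 (0.23). MpPKS/CHS11 was nearer to MpPKS/CHS16 (0.40), just beyond the MpPAL4 end of the stretch, than to any of the 9 (0.59 for MpPAL7). Both genes had 286 counts in intact replicate 3 of Mpglr-9. In replicates 1 and 2 MpPKS/CHS11 had 32 and 29 counts, and MpPKS/CHS16 had 63 and 59. The part of that library in their likeness was not tested. MpPKS/CHS13 was nearest to MpPKS/CHS18 (0.28), which lies elsewhere on chromosome 4. Mp4CL2 was nearest to MpCYP74N2, at 0.098, a gene of the CYP74 family of enzymes that act on fatty acid hydroperoxides.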

How the data were processed

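Poly-A RNA of 18 thallus libraries was sequenced as read pairs on an Illumina NovaSeq instrument, per the labels' protocols. The authors deposited 1 table of read counts per gene, unnormalized; HISAT2 and HTSeq are named in the submitters' processing notes, without versions. The genome build, the strand setting and the treatment of reads with several matches are not stated in the labels used here. Without a strand setting, overlapping antisense transcripts cannot be told apart. Symbols were looked up by gene number in a RefSeq table for assembly MpTak2_v7.1, in which 17384 of the 19355 gene numbers (89.8%) were found. The chromosome of a gene is read from its number, and no coordinates or sequences were used.

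The filter on low counts was edgeR's filterByExpr with the 6 groups, and 13450 genes passed. The counts were tested in R 4.3.3 with edgeR 4.0.16, by quasi-likelihood on TMM-scaled libraries with 1 mean per group over all 18 libraries. P-values were adjusted by Benjamini-Hochberg over all tested genes and called under 0.05. The standard error was the log2 fold change divided by the square root of F, and 95% intervals used the fit's total degrees of freedom. CPM were computed on TMM-scaled sizes, and the likeness measure used log2 CPM with a prior count of 2. At the depth of these libraries 3 counts are 0.0974 to 0.178 CPM. The method was tested on simulated data.

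The 9 genes and the gene lists were chosen with earlier results of these data known. The C4H list was held to the CYP73 family, since the symbol pattern first written also took MpCYP734-like and MpCYP735-like, which belong to other families by name. From each list outside the 9, the 3 called genes with the largest change in wild type are named, and for likeness the 8 nearest genes. Alternatives were RLE and upper-quartile scaling, no filter, DESeq2 1.42.0, the replicate number as a block, only the groups compared, and libraries left out. The labels say that replicates are independent. Same-numbered libraries deviated together, with every correlation above 0.1, only between the genotypes in intact plants (0.314, 0.487 and 0.680) and in crushed lobes (0.254, 0.117 and 0.391), a pairing taken from the data alone. Within each of the 6 groups, no 2 libraries were alike within sampling noise.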

Additional observations from a re-analysis of the deposited data

How the results depend on the processing

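In every alternative run, the 234 values of the 9 genes for crushed against intact thallus stayed above 0, and none of their 1314 values in the tested comparisons was called, 125 of them with another sign than in the reported test. The median change of the 9 after crushing in Mpglr-9 was 2.39 without replicate 3 of every group and 2.08 to 2.41 with 1 library left out, against 2.17. Counts over all genes depended more on the setting. For untouched against intact thallus DESeq2 called 8 genes in wild type and 23 over both genotypes, the replicate block 1 and 11, and leaving out replicate 3 of every group 4 and 13, against 0; with 1 library left out it was 0 to 3 in wild type, 3 without intact replicate 1.

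For mutant against wild type DESeq2 called 7, 29, 33 and 112 genes in intact, crushed and untouched thallus and their mean, against 3, 4, 7 and 42. The replicate block gave 9, 16 and 84 in crushed and untouched thallus and the mean, and leaving out replicate 3 of every group 14 and 12 in crushed and untouched thallus. With only the groups compared the counts were 2 and 28 in these tissues and 2 in intact plants, and for the mean this fit is the reported one. With 1 library left out the counts ran from 3 to 11 in crushed lobes (11 without wild-type replicate 3), from 3 to 6 in untouched lobes (3 without wild-type replicate 1) and from 21 to 59 for the mean (21 without wild-type untouched replicate 2). The interaction with crushing had 0 to 1 calls with 1 library left out (1 without wild-type intact replicate 1), and that with untouched lobes 1 without replicate 3 of every group. With upper-quartile scaling 30 rather than 23 pathway genes were called lower after crushing in wild type and 28 rather than 20 in the mutant. The replicate block changed no call of a gene among the 9. The causes were not tested.

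Depth limits MpPAL7, MpPAL6 and MpPKS/CHS11 most, with 27 to 61 counts in the intact wild-type libraries. Reads shared among near-identical family members, and the counting of overlapping genes, could not be examined in a count table.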

Other observations

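Among the 89 tested pathway genes outside the 9, high values in single uncrushed libraries were counted. In intact replicate 3 of Mpglr-9, 6 of the 89 (6.74%) exceeded 1.5 times the mean of the other 2 libraries, close to the 5.18% of all tested genes that did so. They were MpPKS/CHS16, with 63, 59 and 286 counts in replicates 1, 2 and 3, MpPAL3 with 35, 24 and 114, MpPKS/CHS18 with 56, 53 and 204, MpPKS/CHS21 with 83, 64 and 147, and the O-methyltransferase genes MpOMT14 with 13, 13 and 41 and MpOMT13 with 13, 10 and 25. In untouched replicate 1 of Mpglr-9, 10 of the 89 (11.2%) exceeded that ratio, against 3.74% of all genes, and 2 of the 9 did so. The other 10 uncrushed libraries had 0 to 4 such pathway genes. These libraries were picked after their values were seen, and no cause was tested.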
